A study of Mus musculus with 9 samples.

Results

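Iron handling genes are the 10 genes Trf, Meltf (formerly Mfi2), Tfrc, Slc11a2, Slc39a14, Steap4, Fth1, Ftl1, Slc40a1 and Lcn2. They were chosen by name, out of 56289 genes, for their roles in iron transport and storage, with earlier results of these data known. Trf and Meltf are also among genes the study selected on these libraries, so shares over all genes are given for scale only. Poly(A) RNA was sequenced from cultures labelled as the murine line RAW264.7, strain BALB/c, in 3 groups of 3 libraries. The Con group was untreated, the TNF-α group was stimulated for 24 h, and the TNF-α+WBT group received TNF-α together with Wang Bi tablet extract, which the labels call WBP, for 24 h. All groups shared the same line and medium with serum, and the TNF-α was the recombinant human protein, given here to mouse cells. The study calls the libraries of a group biological replicates, the labels do not say whether they came from separate cultures, and p-values measure the spread between these libraries.

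RAW264.7 is described as macrophage-like, and the libraries did not carry that profile. Of 18 macrophage markers, only Cd14 was above 1 FPKM (fragments per kilobase, divided by sequencing depth) in all 9 libraries, and 7, the pan-leukocyte marker Ptprc and the myeloid regulator Spi1 among them, were at 0 in all 9. The summed level of the 18 was 6.37 to 7.83 FPKM in Con, 8.40 to 9.26 with TNF-α and 8.57 to 9.75 with TNF-α+WBT. Of 12 fibroblast markers 10 were above 1 FPKM in all libraries, with sums of 5086 to 5460 FPKM in Con, 5467 to 5762 with TNF-α and 5442 to 5547 with TNF-α+WBT, and Lum was at 0. Of 12 Schwann cell markers 9 were above 1 FPKM, with sums of 953.7 to 1009, 776.5 to 839.3 and 840.9 to 871.3 FPKM in the same order, and Gfra3 was at 0. The part of these marker differences in the results below was not tested. In bulk RNA, a change in the share of cells of a type and a change in RNA per cell cannot be told apart.

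Depth was estimated from the smallest steps in the values. It was 20220000 to 26055000 fragments in the Con libraries, 18888000 to 22424000 with TNF-α and 16827000 to 19822000 with TNF-α+WBT. Limits given below from a count of 0 cover counting error only.

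Iron circulates bound to transferrin (Trf), and cells take it in through transferrin receptor 1 (Tfrc). In the endosome the ferric ion is reduced by STEAP family reductases such as Steap4 and leaves through the transporter DMT1 (Slc11a2), while ZIP14 (Slc39a14) takes up iron that is not bound to transferrin. Iron not in use is stored in ferritin, a shell of heavy (Fth1) and light (Ftl1) chains, and leaves the cell through ferroportin (Slc40a1). Iron regulatory proteins bind a hairpin, the iron-responsive element, in several of these mRNAs: in a 5′ UTR this blocks translation, and in a 3′ UTR it protects the transcript. In inflammation macrophages are known for holding iron back.

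The hairpins are shown because they set apart members that are known to be controlled by iron after transcription. They were searched in the transcripts of GENCODE M21 on GRCm38 as a loop of CAGTG and then A, C or T, which the capitals mark. The loop stood over a stem of 5 base pairs, with at most 1 mismatch, and an unpaired C below it. At least 3 further pairs were required below that C. A stem with all 5 pairs and 1 unpaired base on its 3′ side was also allowed. The search found 1 or more in 5 of the 10 members and in 298 of 21901 protein-coding genes (1.36%). Of the 72 other iron genes listed for comparison, 1 (Alas2) had one. Iron control of members through this hairpin was known before the search, so these counts are a description and test nothing about the members. The 5′ UTR elements lay in Fth1 (chr19:9982733-9982759, plus strand), Ftl1 (chr7:45459780-45459806, minus strand) and Slc40a1 (chr1:45925466-45925492, minus strand).
Fth1 5′ UTR: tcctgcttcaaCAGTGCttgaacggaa
Ftl1 5′ UTR: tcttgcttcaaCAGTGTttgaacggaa
Slc40a1 5′ UTR: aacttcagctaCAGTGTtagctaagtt
In the 3′ UTR of Tfrc the search found 4, all on the plus strand, at chr16:32631220-32631246, chr16:32631599-32631625, chr16:32631664-32631690 and chr16:32631711-32631737. Elements that depart from the pattern would be missed.
Tfrc 3′ UTR, the first: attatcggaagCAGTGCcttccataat
Tfrc 3′ UTR, the second: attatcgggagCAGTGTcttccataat
Tfrc 3′ UTR, the third: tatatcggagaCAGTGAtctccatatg
Tfrc 3′ UTR, the fourth: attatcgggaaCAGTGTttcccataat
The 3′ UTR of Slc11a2 held 1 at chr15:100395153-100395180 on the minus strand, with 1 unpaired base on the 3′ side of the stem.
Slc11a2 3′ UTR: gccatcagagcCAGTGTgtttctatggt
Of the members' transcripts, the Tfrc elements lay in Tfrc-201 and that of Slc11a2 in Slc11a2-205, while the shorter Tfrc-202 and Slc11a2-201 had no match. No match says only that these letters are not in the annotated UTR.

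The members differed widely in level. Ordered by mean FPKM over the 9 libraries, which is a value per length, they ran Ftl1 (911.5), Fth1 (618.1), Tfrc (44.1), Slc11a2 (21.2), Steap4 (19.4), Slc39a14 (15.8), Slc40a1 (3.39), Trf (1.94), Lcn2 (0.0109) and Meltf (0.00718). The order in the middle was not the same in every group. In Con, Slc39a14 (15.5 to 18.6 FPKM) lay above Slc11a2 (14.2 to 14.9) and Slc11a2 above Steap4 (8.00 to 8.61), with no overlap. With TNF-α, Steap4 (25.04 to 25.9) and Slc11a2 (24.6 to 25.6) overlapped and both lay above Slc39a14 (13.0 to 17.3). Trf lay below Slc40a1 in Con (0.857 to 0.924 against 3.19 to 3.77) and overlapped it with TNF-α (2.29 to 3.25 against 2.51 to 3.73).

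**Figure D1:**
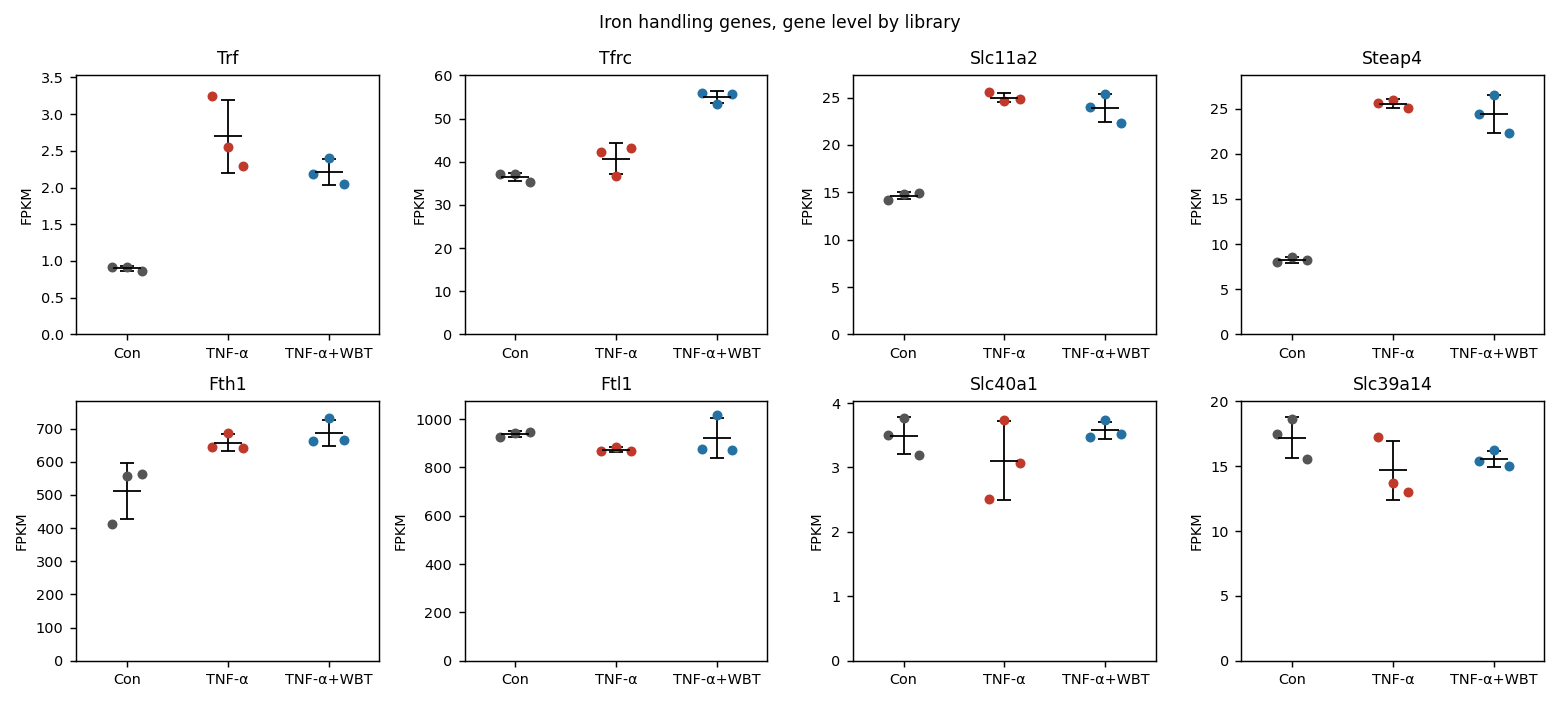
FPKM (y axis, from 0) of 8 iron handling genes in the 3 libraries of each group (points), with the group mean and SD (bars). Steap4, Slc11a2 and Trf stand higher in all stimulated libraries than in all Con libraries, and Tfrc is highest in the 3 TNF-α+WBT libraries (53.5 to 55.8 FPKM).

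TNF-α against Con asks how stimulation changed these genes. Steap4, Trf and Slc11a2 rose, by 3.09-, 3.00- and 1.71-fold in mean FPKM. No member fell past the threshold. Of the 10 members 9 were tested, and 3 rose at an adjusted p under 0.05, where 2.94% of the 25417 tested genes rose and 4.86% changed in either direction. At the rule of an unadjusted p under 0.05 with over 2-fold change, 2 members (Trf and Steap4) were called, against 2.42% of all genes. The groups did not overlap for 5 members, 4 higher and 1 lower, against 21.2% of all genes. The median log2 fold change of the 9 tested members was 0.23, beside 0.0028 over all tested genes. That median is the value of Meltf, which lay near the limit of a count of 0 and ran from 0.03 to 1.17 by setting, and the median of the other 8 was 0.26.

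Steap4 (ENSMUSG00000012428, chr5:7960457-7982213, plus strand), the ferric and cupric reductase, was listed in Con at 8.00, 8.61 and 8.20 FPKM. Its levels were 25.7, 25.9 and 25.04 FPKM with TNF-α and at 24.4, 26.5 and 22.3 FPKM with TNF-α+WBT. All 6 stimulated libraries lay above all 3 Con libraries, and the stimulated groups overlapped. The log2 fold change of FPKM + 0.1 with TNF-α was 1.62 (SE 0.06, limma adjusted p = 2.81e-06), the 24th smallest p of all tested genes. All of its signal came from the single transcript Steap4-201, so no division between transcripts enters the value.

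The stretch before the Steap4 start is shown because it carried 2 matches to the NF-κB decamer, a motif bound by a transcription factor that TNF-α activates. RefSeq sequence (GRCm38.p6) held a window of 250 bases before a start for 6 of the 10 members, 8 windows in all, and the motif was searched on both strands. The window of Ftl1 held 1 match, the windows of Lcn2, Meltf, Tfrc and Fth1 held 0, and Trf, Slc11a2, Slc39a14 and Slc40a1 had no entry. Over all 32851 promoters of the table, 1281 (3.90%) held the decamer. The AP-1 motif TGANTCA was in 0 of the 8 windows and in 6.75% of all promoters. In the Steap4 stretch, chr5:7960222-7960281 on the plus strand, the capitals mark the decamers, both read on the other strand.
Steap4 upstream: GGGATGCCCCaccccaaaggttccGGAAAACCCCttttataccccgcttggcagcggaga
A match of letters is a description and does not show binding. The stretch was picked for its matches, and any part of them in the rise of Steap4 was not tested.

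Trf (ENSMUSG00000032554, chr9:103204001-103230444, minus strand), the plasma iron carrier, was low. It stood at 0.920, 0.924 and 0.857 FPKM in Con, at 3.25, 2.55 and 2.29 FPKM with TNF-α and at 2.18, 2.40 and 2.05 FPKM with TNF-α+WBT. These values rest on 38.5 to 132.6 estimated fragments a library. The TNF-α libraries were spread (2.70 ± 0.495 FPKM, SD, n = 3), and all of them lay above Con (0.901 ± 0.0375 FPKM, SD, n = 3). In limma this was a log2 fold change of 1.47 (SE 0.15, adjusted p = 0.00083). A pseudocount of 1 in place of 0.1 gave 0.95 (adjusted p = 0.00197). Its exons overlap those of the annotated gene Gm20425 on the same strand, so fragments could be divided between them. The main coding transcript Trf-201 had log2 fold changes of 1.27 against Con in both stimulated groups, which missed the threshold over all transcripts (limma adjusted p = 0.0522 for TNF-α and 0.0637 for TNF-α+WBT). It made up 56.2% to 87.3% of the gene value with TNF-α, and in TNF-α replicate 1 the short forms Trf-209 (0.919 FPKM) and Trf-207 (0.421 FPKM) added to it. Counted as estimated fragments per 1000000 of depth, which short forms weigh on less, the gene stood at 1.78 to 2.34 in Con, 5.12 to 5.91 with TNF-α and 4.33 to 6.06 with TNF-α+WBT.

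Slc11a2 (ENSMUSG00000023030, chr15:100387898-100425072, minus strand), the endosomal iron transporter, had 14.2, 14.8 and 14.9 FPKM in Con, and was at 25.6, 24.6 and 24.8 FPKM with TNF-α and at 24.0, 25.3 and 22.4 FPKM with TNF-α+WBT. The spread within groups was small beside the step between Con and the stimulated libraries. With TNF-α the gene rose by a log2 fold change of 0.77 (SE 0.05, limma adjusted p = 6.08e-05), under the 2-fold limit of the other rule. Gm5475, annotated on the other strand, was listed at 0 to 0.116 FPKM.

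Neither ferritin chain passed the test. Fth1 (ENSMUSG00000024661, chr19:9980598-9985098, plus strand), the chain that oxidises iron for storage, stood at 413, 556 and 564 FPKM in Con and at 644, 687 and 641 FPKM with TNF-α. All TNF-α libraries lay above all Con libraries, and Con replicate 1 lay well below the other Con libraries. The difference, 0.38 on the log2 scale (SE 0.11, limma adjusted p = 0.116), did not pass the threshold. Without Con replicate 1 it was 0.23 (adjusted p = 0.0821). The main coding form Fth1-201 overlapped, at 203, 414 and 429 FPKM in Con and 417, 415 and 367 with TNF-α. The short coding form Fth1-209, of 592 bases, stood at 140, 78.1 and 74.1 FPKM in Con and 153, 191 and 177 with TNF-α. Neither form passed the threshold over all transcripts. In estimated fragments per 1000000 of depth, Fth1 stood at 340 to 502 in Con and 555 to 579 with TNF-α, with no overlap.

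Ftl1 (ENSMUSG00000050708, chr7:45457944-45459884, minus strand), the light chain, stood at 926, 941 and 948 FPKM in Con and at 870, 886 and 867 FPKM with TNF-α. All 3 TNF-α libraries lay below all Con libraries, by a log2 fold change of -0.10 (SE 0.06, limma adjusted p = 0.464). For both chains the exact two-sided permutation test gave p = 0.1, the smallest that 3 against 3 libraries allow. Ferritin pseudogenes and relatives can share fragments with these genes, and the most abundant, Ftl1-ps1, stood at 0.567% of the level of Ftl1. Gm22133, annotated inside Ftl1 on the same strand, was listed at 1129 to 1217 FPKM, above Ftl1 itself. Fragments could be divided between them, which was not tested.

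A ratio within a library does not depend on how the library was scaled, but it does depend on how fragments were divided between overlapping genes. The log2 ratio of Ftl1 to Fth1 was 0.89 ± 0.24 in Con and 0.41 ± 0.04 with TNF-α (SD, n = 3), a difference of -0.48. The groups did not overlap, and the exact permutation test gave p = 0.1 (0.2 after Benjamini-Hochberg adjustment over 6 tests of ratios), so the threshold could not be reached. Leaving out Con replicate 1 or any other of the 6 libraries gave -0.55 to -0.34. The log2 ratio of Tfrc to Fth1 was -3.79 ± 0.28 in Con and -4.01 ± 0.18 with TNF-α, and these groups overlapped (exact permutation p = 0.5, adjusted p = 0.6).

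Tfrc (ENSMUSG00000022797, chr16:32608920-32632794, plus strand), the receptor for loaded transferrin, stood at 37.1, 37.1 and 35.4 FPKM in Con and at 42.3, 36.7 and 43.1 FPKM with TNF-α. The groups overlapped because of TNF-α replicate 2. The retained-intron form Tfrc-204 entered this value, at 0.872, 4.65 and 2.59 FPKM in Con and 6.77, 3.18 and 7.55 with TNF-α. The main forms went opposite ways with TNF-α, Tfrc-201 by a log2 fold change of -0.12 and Tfrc-202 by 0.40. Neither passed the threshold (limma adjusted p = 0.841 and 0.341). On the log2 scale Tfrc differed by 0.15 (SE 0.06, limma adjusted p = 0.252). Without TNF-α replicate 2 it was 0.23 and passed the threshold (adjusted p = 0.0275), the only one of 19 alternative settings in which it did.

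Export and uptake of free iron did not pass the test. Slc40a1 (ENSMUSG00000025993, chr1:45908068-45926523, minus strand), the exporter, stood at 3.51, 3.77 and 3.19 FPKM in Con and at 2.51, 3.73 and 3.07 FPKM with TNF-α, with a log2 fold change of -0.18 (95% interval -0.50 to 0.14, limma adjusted p = 0.626). Slc39a14 (ENSMUSG00000022094, chr14:70303469-70351425, minus strand) stood at 17.5, 18.6 and 15.5 FPKM in Con and at 17.3, 13.7 and 13.0 FPKM with TNF-α. That was a log2 fold change of -0.23 (95% interval -0.48 to 0.01, limma adjusted p = 0.342). In FPKM the groups overlapped for both genes. In estimated fragments per 1000000 of depth, Slc39a14 stood at 64.0 to 71.7 in Con, 49.8 to 62.2 with TNF-α and 62.3 to 62.8 with TNF-α+WBT. The groups did not overlap on that scale, while Con and TNF-α still did for Slc40a1. The main coding form Slc39a14-202 was also lower in all TNF-α libraries than in Con. Its log2 fold change was -0.32 (limma adjusted p = 0.416 over all transcripts).

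Lcn2 (ENSMUSG00000026822, chr2:32384633-32388252, minus strand), the siderophore-binding lipocalin, was listed at 0 in all libraries but TNF-α+WBT replicate 1, at 0.0982 FPKM or 1.9 estimated fragments, and could not be tested. A count of 0, which allows up to 3 fragments, allows 0.126 to 0.195 FPKM for its transcript Lcn2-201. Meltf (ENSMUSG00000022780, chr16:31878810-31899020, plus strand), which encodes melanotransferrin, was at 0 in all Con libraries, at 0.0116, 0.0432 and 0 FPKM with TNF-α and at 0, 0 and 0.00994 FPKM with TNF-α+WBT. No fold is given for either, since both groups lay near the limit of a count of 0, which for Meltf is 0.0279 to 0.0431 FPKM. The limma adjusted p of Meltf for TNF-α against Con was 0.546.

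**Figure D2:**
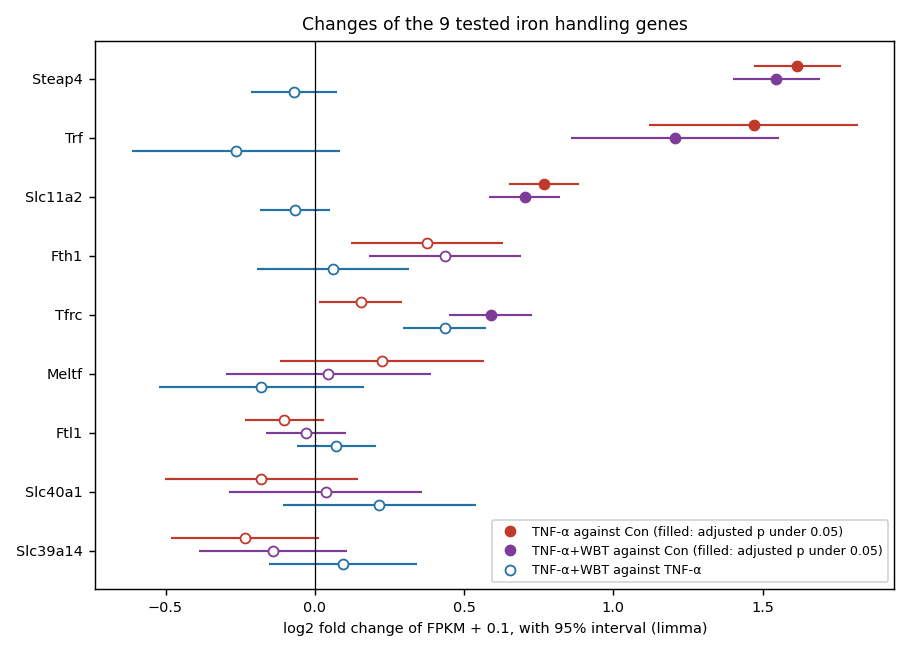
Log2 fold change of FPKM + 0.1 (x axis) with its 95% interval for the 9 tested members in 3 comparisons, filled where the adjusted p was under 0.05. Steap4, Trf and Slc11a2 lie to the right of 0 in both comparisons with Con, and no member is filled for TNF-α+WBT against TNF-α.

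TNF-α+WBT against TNF-α asks what the extract changed in stimulated cells. Of the members that rose with TNF-α, Steap4 and Slc11a2 stayed near their TNF-α levels. Trf had a lower mean (2.21 against 2.70 FPKM), with groups that overlapped. Tfrc was the member with the smallest p. No member passed an adjusted p under 0.05 in limma, and 1 (Tfrc) had an unadjusted p under 0.05. Over all tested genes 0.00393% passed the adjusted threshold and 6.31% had an unadjusted p under 0.05. The rule of 2-fold with an unadjusted p under 0.05 was passed by 1.12% of all genes and by 0 members. The groups did not overlap for 1 member, against 11.0% of all genes. The median log2 fold change of the members was 0.06, and that of all genes was -0.0020.

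Tfrc stood at 55.8, 53.5 and 55.6 FPKM with TNF-α+WBT, beside 42.3, 36.7 and 43.1 with TNF-α alone. The lowest TNF-α+WBT library lay above the highest TNF-α library. The log2 fold change was 0.44 (95% interval 0.30 to 0.57, unadjusted p = 7.10e-05), the 11th smallest p of all genes, with a limma adjusted p of 0.162. Over 19 alternative settings the log2 fold change was 0.36 to 0.48 and the adjusted p 0.086 to 0.378, so the threshold was not passed in any of them. The log2 ratio of Tfrc to Fth1 was -3.64 ± 0.12 with TNF-α+WBT and -4.01 ± 0.18 with TNF-α (SD, n = 3), with no overlap (exact permutation p = 0.1, adjusted p = 0.2).

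For the members that TNF-α raised, the intervals bound how far TNF-α+WBT differed from TNF-α. The same TNF-α libraries served to call these members as raised, which can bias their differences downward. Log2 fold changes were -0.07 for Steap4 (95% interval -0.21 to 0.07), -0.07 for Slc11a2 (-0.18 to 0.05) and -0.26 for Trf (-0.61 to 0.09). It was 0.06 for Fth1 (-0.19 to 0.31) and 0.07 for Ftl1 (-0.06 to 0.21). Fth1 stood at 661, 731 and 665 FPKM and Ftl1 at 878, 1016 and 872 FPKM with TNF-α+WBT, and both overlapped their TNF-α libraries. Slc40a1 stood at 3.48, 3.73 and 3.52 FPKM (log2 fold change 0.22, 95% interval -0.11 to 0.54), and Slc39a14 at 15.4, 16.3 and 14.99 FPKM (0.09, -0.15 to 0.34).

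TNF-α+WBT against Con shares its Con libraries with the first comparison, so the values are given side by side and not as a repeat. Of the members, 4 rose at an adjusted p under 0.05 (Steap4, Slc11a2, Tfrc and Trf), where 2.31% of all genes rose and 3.71% changed in either direction. At the 2-fold rule 2 members were called, against 2.29% of all genes, and 5 members had groups that did not overlap, against 19.5%. The log2 fold change was 1.55 for Steap4 (SE 0.06, limma adjusted p = 5.75e-06), 1.21 for Trf (SE 0.15, adjusted p = 0.00314) and 0.70 for Slc11a2 (SE 0.05, adjusted p = 0.000132). For Tfrc it was 0.59 (SE 0.06, adjusted p = 0.000975), a 1.51-fold rise in mean FPKM. Fth1 lay higher in all 3 TNF-α+WBT libraries with a log2 fold change of 0.44 (limma adjusted p = 0.0795). It passed the threshold without Con replicate 1 (0.29, adjusted p = 0.0414) and when genes under a mean of 1 FPKM were left out (0.44, adjusted p = 0.0428).

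The transcripts were compared because the search matched the hairpin in 1 main annotated form of Slc11a2 and Tfrc and not in the other. Of 68 annotated transcripts of members, 50 were tested. With TNF-α 3 rose at an adjusted p under 0.05 (Steap4-201, Slc11a2-201 and Slc11a2-205), where 0.635% of the 80149 tested transcripts changed. For TNF-α+WBT against TNF-α 0 were called in limma, against 0.0424%, and against Con 4 were (the same 3 and Tfrc-202), against 0.455%.

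Slc11a2-205, which holds the hairpin shown above, rose from 5.19 to 9.36 mean FPKM with TNF-α (log2 fold change 0.83, SE 0.12, limma adjusted p = 0.0303). Slc11a2-201, which has no match, rose from 8.44 to 14.0 mean FPKM (0.72, SE 0.07, adjusted p = 0.00563). The call of Slc11a2-205 with TNF-α was lost with any 1 of the 9 libraries left out and with the replicate number as a block, while those of Slc11a2-201 and Steap4-201 held in each of these. Of the sum of both, Slc11a2-205 made up 35.6% to 41.2% in Con, 36.6% to 45.5% with TNF-α and 39.4% to 42.0% with TNF-α+WBT. These ranges overlapped. Of the sum of Tfrc-201 and Tfrc-202, the hairpin form Tfrc-201 made up 60.8% to 72.6% in Con, 53.6% to 61.0% with TNF-α and 58.8% to 60.1% with TNF-α+WBT. The range with TNF-α+WBT lay below that of Con, and the range with TNF-α overlapped both. These shares were not tested. Tfrc-202 is annotated at 1860 bases and Tfrc-201 at 4890, and whether Tfrc-202 is a complete mRNA was not examined. The Tfrc shares therefore do not show a shift between mRNAs with and without the hairpin.

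Tfrc-201, the form in which the search found 4 hairpins, stood at 22.9, 17.5 and 18.6 FPKM in Con. It stood at 18.1, 19.0 and 16.8 FPKM with TNF-α and at 29.1, 26.3 and 28.5 FPKM with TNF-α+WBT. The TNF-α+WBT libraries lay above all others, by a log2 fold change of 0.64 against TNF-α (SE 0.11, limma adjusted p = 0.266). Tfrc-202 stood at 8.65, 11.3 and 10.7 FPKM in Con, at 13.9, 12.1 and 14.5 FPKM with TNF-α and at 19.4, 18.2 and 20.0 FPKM with TNF-α+WBT. Its log2 fold change with TNF-α+WBT was 0.51 against TNF-α (SE 0.12, limma adjusted p = 0.578) and 0.91 against Con (SE 0.12, adjusted p = 0.0189). That last call was lost with the block and without Con replicate 3 or any 1 of the TNF-α+WBT libraries. The split between transcripts is an estimate made from shared exons, and these forms share most of theirs.

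**Figure D3:**
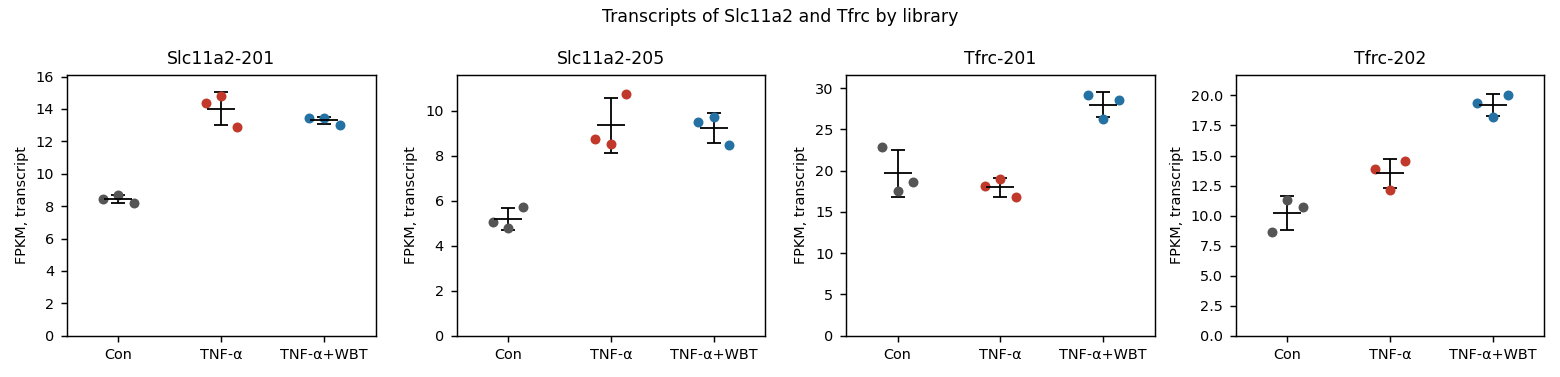
FPKM (y axis, from 0) of the main transcripts of Slc11a2 and Tfrc in the 3 libraries of each group (points), with mean and SD (bars). Both Slc11a2 forms are higher in the stimulated groups, and both Tfrc forms are highest with TNF-α+WBT.

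The wider iron pathway was read from a list of 72 other genes, of which 63 were tested. With TNF-α 4 rose at an adjusted p under 0.05 (Cp, Slc11a1, Steap1 and Slc48a1), 0 fell in limma, and 15 had an unadjusted p under 0.05. Over all tested genes 2.94% rose at the adjusted threshold and 16.1% had an unadjusted p under 0.05. The median log2 fold change was 0.03. By group, 1 of 4 tested ferric reductases and other STEAPs rose, as did the only copper ferroxidase tested. Of macrophage iron recycling 1 of 4 tested genes rose, and of heme breakdown and transport 1 of 8. None passed among 4 other tested uptake genes and receptors, 6 iron sensors and binding proteins and 6 genes of the hepcidin axis. The same held for 9 tested genes of heme synthesis, 16 of mitochondrial iron and iron-sulfur clusters and 5 of the endosome and lysosome. For TNF-α+WBT against TNF-α 0 of the 63 were called in limma and 2 (Steap1 and Cp) had an unadjusted p under 0.05, against 6.31% of all genes. Against Con 3 rose (Cp, Slc11a1 and Slc48a1) and 0 fell, where 2.31% of all genes rose, and 12 had an unadjusted p under 0.05, against 14.7%.

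Cp, the copper oxidase ceruloplasmin that loads iron onto transferrin, stood at 75.6, 72.0 and 75.5 FPKM in Con, at 113.8, 136.2 and 136.9 FPKM with TNF-α and at 149.2, 164.0 and 155.0 FPKM with TNF-α+WBT. The 3 groups did not overlap on this scale. The log2 fold change with TNF-α was 0.79 (SE 0.07, limma adjusted p = 0.000394), and between TNF-α+WBT and TNF-α it was 0.28 (adjusted p = 0.559). Between the stimulated groups the gene value followed the short retained-intron form Cp-206, of 814 bases, which had 24.2 mean FPKM under TNF-α alone and 60.7 once WBT was added. The coding forms Cp-202 (45.9 and 34.2 mean FPKM) and Cp-201 (23.1 and 16.9) had lower means with TNF-α+WBT, and Cp-204 (19.8 and 30.4) a higher one, and these forms were not tested singly. In estimated fragments per 1000000 of depth, Cp stood at 199 to 225 in Con, 383 to 442 with TNF-α and 410 to 432 with TNF-α+WBT, so the stimulated groups overlapped. The gene Slc11a1, whose coding form makes the phagosomal relative of Slc11a2, stood at 0.114, 0.0510 and 0 FPKM in Con, with at most 3.9 estimated fragments, at 2.54, 2.39 and 1.95 FPKM with TNF-α and at 1.89, 1.502 and 1.30 FPKM with TNF-α+WBT. It rose with a limma adjusted p of 0.000105, and no fold is given over so few fragments in Con. Most of its value with TNF-α lay in noncoding forms, Slc11a1-204 with a retained intron (0.996 mean FPKM) and Slc11a1-205 (0.611), and the coding Slc11a1-201 made up 4.85% to 15.9% of the gene value.

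Of the other relatives of members, Steap1 rose from 18.8 to 22.8 mean FPKM with TNF-α (log2 fold change 0.27, SE 0.04, limma adjusted p = 0.00867) and stood at 20.2 with TNF-α+WBT. Steap2 stood at 22.9, 25.8 and 24.2 mean FPKM in Con, TNF-α and TNF-α+WBT (adjusted p = 0.113 for TNF-α against Con), and Steap3 at 11.8, 10.8 and 10.8 (adjusted p = 0.826). Of the 4 STEAP genes named, Steap4 thus had the highest fold with TNF-α, 3.09 against 1.21 for Steap1. Tfr2, the second transferrin receptor, stood at 0.0145 to 0.353 FPKM over the 9 libraries, and Slc39a8 and Ftmt, relatives of Slc39a14 and the ferritins, were listed at 0 in all. Slc48a1, a heme transporter, rose from 56.5 to 70.0 mean FPKM with TNF-α (log2 fold change 0.31, SE 0.05, limma adjusted p = 0.00989). Without the intensity trend in limma, the calls of Steap1 and Slc48a1 with TNF-α were lost and those of Cp and Slc11a1 held. Slc48a1 against Con with TNF-α+WBT lay close to the threshold (adjusted p = 0.0420) and lost its call with the block and under most omissions of a library.

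**Figure D4:**
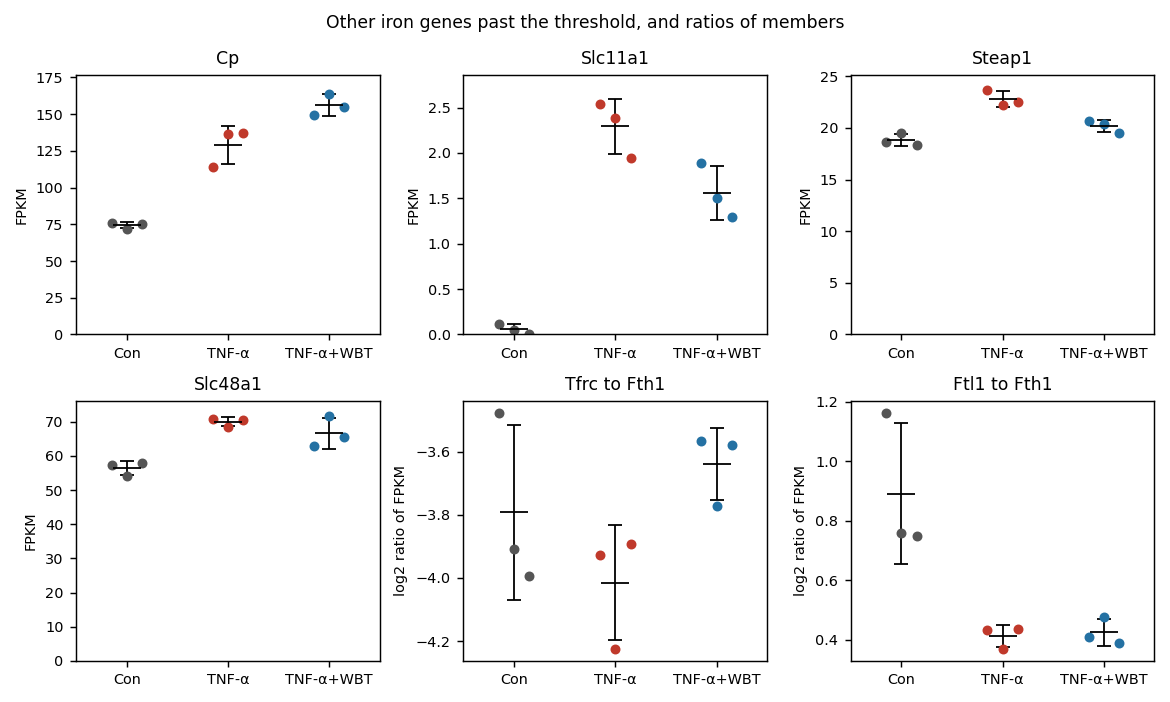
FPKM (y axis, from 0) of Cp, Slc11a1, Steap1 and Slc48a1, and log2 ratios of FPKM for Tfrc to Fth1 and Ftl1 to Fth1 (y axes not from 0), in the 3 libraries of each group, with mean and SD. The Ftl1 to Fth1 ratio is lower in all 6 stimulated libraries than in the 3 Con libraries (0.75 to 1.16).

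For the members that TNF-α raised, the genes with the most similar values over the 9 libraries were named, among 12685 others with a mean of at least 1 FPKM. Likeness was the root mean square difference of log2(FPKM + 0.1), each gene centred on its Con mean. Nearest to Steap4 were Nfkbia (0.0811), Gpr176 (0.0980) and Tlr2 (0.103). Nearest to Slc11a2 were Sbno2 (0.0582), Dtx3l (0.0600) and Mvp (0.0643), and nearest to Trf were Ccl7 (0.156), Slc31a2 (0.158) and Ifngr2 (0.161). Nfkbia stood at 24.7, 80.3 and 70.1 mean FPKM in Con, TNF-α and TNF-α+WBT, a level above that of Steap4 at a like step. The 9 libraries are shared by all genes, so the measure describes these libraries only.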

How the data were processed

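For each of 9 libraries the authors deposited FPKM values per gene and per transcript, which the workflow in the study traces to HISAT2, StringTie and Ballgown. Versions, genome build and strandedness are not given in the sources used here. Of the gene identifiers 98.1% were in GENCODE M21 (GRCm38), which gave names, positions and UTRs. Depth was estimated from 10703 genes with 1 transcript over 1000 bases.

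A gene entered the test if 3 or more libraries had it above 0 FPKM. The scale was log2(FPKM + 0.1), which understates changes of low genes, and the test was limma 3.58.1 (R 4.3.3), with 1 linear model of the 9 libraries, a term for each group, and eBayes with an intensity trend. P-values were Benjamini-Hochberg adjusted over all genes, with calls at 0.05, and separately at an unadjusted p under 0.05 with over 2-fold. Transcripts were tested likewise. Ratios used exact two-sided permutation tests. The model was tested on simulated data. Sequence searches, exact tests and plots were done in Python 3.11.15 with scipy 1.17.1 and matplotlib 3.10.9.

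The members and lists were chosen with earlier results of these data known, and Trf and Meltf are among genes the study itself selected on these libraries. Named were all members, listed iron genes past the adjusted threshold, their relatives whatever their values, and the 3 genes nearest each member raised by TNF-α. Alternatives were the pseudocount, the filter, the trend, a model of the 2 groups compared, median centring, quantile normalization, transcript sums, a block for the replicate number, and omission of each library. ELISA and network analyses were not analysed here.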

Additional observations from a re-analysis of the deposited data

How the results depend on the processing

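Steap4, Trf and Slc11a2 kept their direction and their adjusted p under 0.05 in both comparisons with Con in all 19 alternatives, and Tfrc did so against Con with TNF-α+WBT. Without the intensity trend 2 listed iron genes (Cp and Slc11a1) rose with TNF-α in place of 4. Quantile normalization added 1 that fell between TNF-α+WBT and Con (Pcbp1). Leaving out each library gave 0 to 1 listed genes that fell in both comparisons with Con, the 1 being Hamp without Con replicate 1, and 1 to 4 members' transcripts called between TNF-α+WBT and Con. That count was 1 without Con replicate 3, TNF-α+WBT replicate 1 or TNF-α+WBT replicate 2, and 2 without TNF-α+WBT replicate 3. Between TNF-α+WBT and Con the small log2 fold change of Slc40a1 turned to -0.02 without Con replicate 3 (range -0.02 to 0.09 over the 9 omissions), and that of Ftl1 to 0.00 and 0.01 without TNF-α+WBT replicate 1 or 3 (range -0.10 to 0.01). The causes were not tested. Over all genes, leaving out Con replicate 3 took the calls from 1236 to 823 with TNF-α and from 942 to 579 with TNF-α+WBT against Con, and the single call between TNF-α+WBT and TNF-α became 0 to 11. Same-numbered libraries of different groups did not deviate together (r from -0.07 to 0.10 over 9 pairs). The 18 differently numbered pairs had r from -0.10 to 0.10. This shows no strong shared deviation, and whether the numbers mark a pairing is not stated in the labels. With the replicate number as a block, 3, 4 and 0 members were called in TNF-α against Con, TNF-α+WBT against Con and TNF-α+WBT against TNF-α, and 1 transcript (Steap4-201) in place of 4 between TNF-α+WBT and Con. With 3 libraries a group, the exact test could not go below 0.1.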

Other observations

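March8, which encodes a membrane ubiquitin ligase known to direct transferrin receptor to the lysosome, stood at 15.7, 13.3 and 12.9 FPKM in Con, at 11.8, 12.6 and 10.9 FPKM with TNF-α and at 26.9, 25.6 and 28.9 FPKM with TNF-α+WBT. It is no member and was chosen after its values were seen. Its TNF-α+WBT libraries lay above all others, as those of Tfrc did, and no relation between them was tested.

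Con replicate 1 stood apart in the transcripts of Fth1, where Fth1-201 was at 203 FPKM, beside 414 and 429 in the other Con libraries. Con replicate 3 stood apart in Ftl1-202, a form marked for nonsense-mediated decay, at 74.7 FPKM, where the other 8 libraries lay at 1.196 to 7.47 FPKM.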
